A study of Arabidopsis thaliana with 12 samples.

Results

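The 1176 H2A.Z islands described here were called in ref4-3 and shared no base pair with any wild-type (WT) H2A.Z island. They were chosen by that rule from the island lists that the authors had called on the merged replicates of each genotype, so the H2A.Z signal itself selected them. They made up 5.25% of the 22416 merged ref4-3 H2A.Z islands and 2.26% of the length of that list, which is 643.6 kb, out of 45054 islands in the merged lists of both genotypes. The other 21240 ref4-3 islands shared sequence with a WT island, and 1597 of the 22638 WT islands had no ref4-3 counterpart.

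The islands come from ChIP-seq on whole rosettes of Arabidopsis thaliana plants aged 21 days in the Col-0 background. The mutant ref4-3 carries a semidominant point mutation in MED5b, a subunit of the tail of the Mediator complex, which links transcription factors to RNA polymerase II, and WT carries the unaltered gene. A single mutant allele was profiled. Each genotype has 2 replicates, labelled as biological, for H2A.Z and 2 for H3K27me3, so that p-values rest on the spread within 2 pairs, and the 4 input samples were not analysed as samples here.

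H2A.Z is a variant of histone H2A that the SWR1 chromatin remodelling complex exchanges into nucleosomes. In Arabidopsis it is best known from the first nucleosomes after the transcription start of most genes, and from the bodies of genes that respond to stress or to the environment. H3K27me3, the trimethylation of lysine 27 of histone H3, is laid down by Polycomb repressive complex 2 and marks repressed genes, many of which also carry H2A.Z.

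The libraries held between 7848342 and 10128759 H2A.Z fragments in counted regions and between 5805781 and 8466471 H3K27me3 fragments. The ref4-3 libraries had 8863116 and 7848342 H2A.Z fragments, against 9070114 and 10128759 in the WT libraries. Whether depth was equalized before islands were called is not given in the sources used here, and its part in the calls was not tested.

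To show what kind of sequence these islands held, the central 200 bp are printed for 6 islands that lay in both ref4-3 replicate lists and in neither WT replicate list. They are read 5′ to 3′ on the strand of the gene, from the RefSeq assembly TAIR10.1, and contain coding or intron sequence alone. Capitals mark matches, on either strand, to a telobox (AAACCCTAA), a W-box core (TTGAC) or a GA repeat (GAGAGA). The G-box CACGTG, searched as well, was in none of the 6.
AT5G03585, chr5:7826101-7826300, plus strand: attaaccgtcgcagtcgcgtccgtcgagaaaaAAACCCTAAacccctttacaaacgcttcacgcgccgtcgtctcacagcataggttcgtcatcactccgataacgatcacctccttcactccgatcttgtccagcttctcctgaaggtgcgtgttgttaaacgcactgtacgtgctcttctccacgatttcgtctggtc
AAE17, chr5:7735101-7735300, minus strand: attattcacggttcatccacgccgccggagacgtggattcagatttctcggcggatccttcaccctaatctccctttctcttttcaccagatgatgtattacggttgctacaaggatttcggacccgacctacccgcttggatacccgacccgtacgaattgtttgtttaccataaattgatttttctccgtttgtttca
XTH30, chr1:11575501-11575700, plus strand: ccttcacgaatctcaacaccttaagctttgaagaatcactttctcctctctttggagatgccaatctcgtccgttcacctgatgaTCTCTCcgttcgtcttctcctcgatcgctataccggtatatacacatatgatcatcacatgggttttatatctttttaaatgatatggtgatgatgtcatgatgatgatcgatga
ATSYP24, chr1:11644601-11644800, plus strand: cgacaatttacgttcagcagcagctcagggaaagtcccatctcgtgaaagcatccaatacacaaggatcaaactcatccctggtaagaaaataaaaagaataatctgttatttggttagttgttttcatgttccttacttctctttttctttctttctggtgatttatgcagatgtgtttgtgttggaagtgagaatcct
bZIP1, chr5:20052301-20052500, plus strand: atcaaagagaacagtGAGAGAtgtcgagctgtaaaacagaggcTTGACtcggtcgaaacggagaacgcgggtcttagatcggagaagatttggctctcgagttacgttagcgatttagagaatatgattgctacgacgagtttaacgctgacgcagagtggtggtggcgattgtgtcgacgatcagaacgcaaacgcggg
AT4G01330, chr4:550901-551100, plus strand: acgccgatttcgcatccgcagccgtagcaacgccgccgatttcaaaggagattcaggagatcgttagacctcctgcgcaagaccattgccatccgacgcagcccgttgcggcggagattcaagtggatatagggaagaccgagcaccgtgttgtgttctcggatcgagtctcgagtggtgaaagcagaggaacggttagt
In AT5G03585, a long non-coding RNA gene that overlaps the coding sequence of NIC2, a nicotinamidase gene, the telobox begins at base 33. In XTH30, a gene for an enzyme that remodels cell-wall xyloglucan, the GA repeat begins at base 86 and is read on the other strand. In bZIP1, a gene for a transcription factor of the low-energy response, the GA repeat begins at base 16 and the W-box core at base 44. The windows of AAE17, a gene for an acyl-activating enzyme, of ATSYP24, a gene for a syntaxin of membrane fusion, and of the protein kinase gene AT4G01330 held none of the motifs.

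Over all 1176 central windows the GA repeat was found in 26.8%, against 22.4% of the windows of WT-only islands, 24.1% of those of shared islands and 17.2% of all 200-bp bins of the nuclear chromosomes. The telobox was found in 3.15% of them, against 1.82%, 2.24% and 1.57% in those same sets. All 37 windows with a telobox lay in islands that touched a gene, where they made up 3.88%, and 0 of the 223 windows outside genes held one. The other sets were not split by contact with genes, so nothing is read from this zero. The W-box core was found in 30.8% of the windows, against 32.6% for WT-only islands, 32.6% for shared islands and 34.2% of all bins, and the G-box in 1.79%, 3.01%, 3.21% and 2.20%. The median GC content was 38.0%, against 38.5%, 40.0% and 36.5%. These shares are descriptions, since neighbouring windows are not replicates and a match is only a match of letters.

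Most of the islands were short. The median length was 400 bp, the same as for WT-only islands, against 1000 bp for shared islands. By length, 122 islands had 200 bp, 496 had 400 bp, 310 had 600 bp, 146 had 800 bp and 102 had at least 1000 bp. The authors' score, whose formula the sources used here do not give, had a median of 63.2 and ran between 13.7 and 246.0, beside medians of 65.7 for WT-only islands and 99.2 for shared islands. Their −log10 value, for which the sources do not say whether it refers to a p-value or an adjusted one, had medians of 8.997 for the ref4-3-only, 10.6 for the WT-only and 44.1 for the shared islands. Among the islands the score was higher the shorter they were, with a median of 106.6 at 200 bp, 69.3 at 400 bp and 39.7 at 1000 bp or more.

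The 4 longest were in or at AT5G46300, CNGC13, AT1G51820 and ETR2. The island of 2400 bp at AT5G46300, a gene of unknown function, lay 57.7% outside genes, reached a score of 21.4 and was called in ref4-3 replicate 2 alone. That of 2200 bp in CNGC13, which encodes a cyclic nucleotide-gated ion channel, was called in both replicates with a score of 55.3. The islands of 1800 bp in AT1G51820, a leucine-rich repeat kinase gene, and in ETR2, which encodes an ethylene receptor, were also in both replicate lists.

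The islands were spread over all chromosomes, with 331, 194, 205, 185 and 261 of them on chromosomes 1 to 5. These were between 4.80% and 5.54% of the ref4-3 list of each chromosome. The median island had 27 starts of coding genes within 50 kb, against 26 for WT-only and 27 for shared islands, and only 20 islands, or 1.70%, had fewer than 10.

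The replicate lists show how far the calls repeat. Of the 1176 islands 217, or 18.5%, overlapped an island in both ref4-3 replicate lists, 574 (48.8%) in 1 of them and 385 (32.7%) in neither, so that these last were called on the merged reads alone. Replicate 1 held 547 of them and replicate 2 held 461. Among WT-only islands 375 (23.5%) were in both lists of their own genotype and 510 (31.9%) in neither. Of the shared islands 86.4% were in both and 2.87% in neither. The replicate lists hold the same reads as the merged list, so these shares describe the calls and do not test them.

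**Figure D1:**
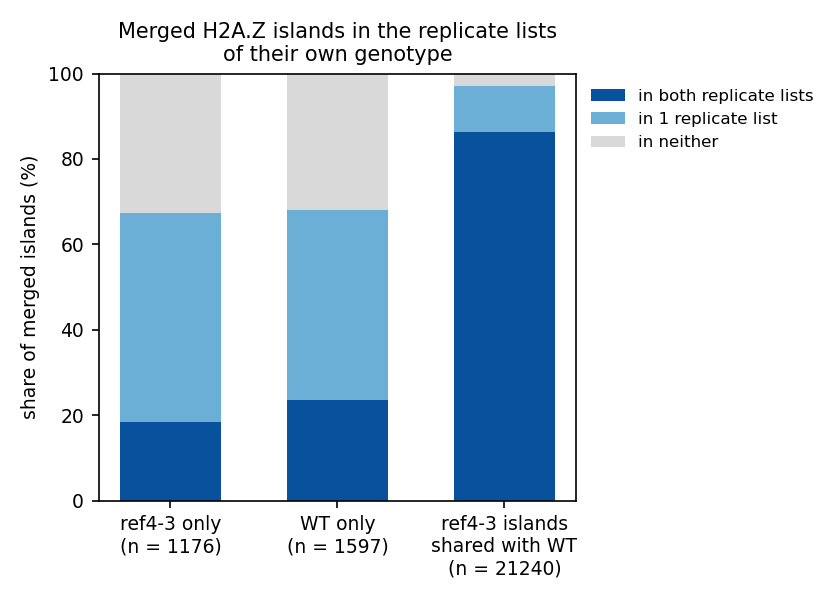
Share of merged H2A.Z islands (%) that overlapped an island in both, 1 or neither of the replicate lists of their own genotype, for ref4-3-only islands (n = 1176), WT-only islands (n = 1597) and ref4-3 islands shared with WT (n = 21240). Both replicate lists held 18.5% of the ref4-3-only, 23.5% of the WT-only and 86.4% of the shared islands.

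Part of this goes with length. Of the ref4-3-only islands of 200 bp, 5.74% were in both replicate lists and 54.9% in neither, while of those of at least 1000 bp 28.4% were in both and 25.5% in neither. Shared islands of 200 bp were in both lists in 30.7% of cases and those of 400 bp in 57.5%, against 14.9% for ref4-3-only islands of 400 bp. Of the 100 islands with the highest scores 20 were in both lists, 40 were in neither, and 63 had 200 bp. Below the lower and above the upper quartile of scores 7.82% and 27.9% were in both lists, and 40.5% and 32.0% in neither.

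The 5 highest scores, named after their values were seen, belonged to islands in AT1G33940 (246.0), AT2G12190, a cytochrome P450 gene (213.2), hda17 (206.4), AT4G28330 (199.9) and AT1G27820 (196.1). None of these was in both ref4-3 replicate lists. Those in AT2G12190 and hda17, which bears the name of a histone deacetylase, were in the list of replicate 2, and the other three in no list. RALFL13, which encodes a small secreted peptide of the rapid alkalinization factor family, had the highest score of the islands in both lists, at 190.5.

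WT replicate lists held 103 of the islands, 43 in replicate 1, 61 in replicate 2 and 1 in both, and 34 were in a WT replicate list while in neither ref4-3 list. This leaves 199 islands, or 16.9%, that were in both ref4-3 lists and in no WT list. As a yardstick, replicate lists of a single genotype were set against each other by the same rule. Of the 21264 islands of ref4-3 replicate 1, 2032 (9.56%) shared no base with replicate 2, against 1775 with WT replicate 1 and 1420 with WT replicate 2. Of the 20205 islands of ref4-3 replicate 2, 1122 (5.55%) shared no base with replicate 1, against 1330 and 1086. Of the 21516 islands of WT replicate 2, 1896 shared no base with ref4-3 replicate 1 and 2469 none with ref4-3 replicate 2, against 1700 with WT replicate 1. Of the 20417 islands of WT replicate 1, 1441 and 1894 shared no base with the ref4-3 replicates, against 921 with WT replicate 2. The WT lists thus had more islands alone against either ref4-3 list than against each other, while for the ref4-3 lists 1 of the 4 counts against WT was above the count within the genotype.

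The distance to WT islands was often short. The gap to the nearest WT island had a median of 1200 bp and a maximum of 71200 bp, 527 islands (44.8%) lay within 1000 bp, and 65 lay more than 5000 bp away. Just inside the rule, the islands in GHR1, a receptor kinase gene, and TPPH, a trehalose-phosphate phosphatase gene, abutted a WT island with a gap of 0 bp and had scores of 51.9 and 50.6, and that in RHS14 lay 200 bp away with a score of 127.5. Among shared islands, those with the fewest shared bases, ties taken by score, were islands of 200 bp in AT2G28030, AT3G60966 and AT1G71370. They lay wholly inside a WT island, so they were not close to the rule, and had scores of 333.8, 292.2 and 271.8. Near-identical sequence elsewhere in the genome covered 89% of the island in AT1G71370. In the island of RHS14 the ref4-3 libraries had 16.8 and 13.0 H2A.Z fragments scaled to library depth (CPM) and the WT libraries 12.5 and 13.5. In that of AT2G28030 they were 9.94 and 10.7 CPM in ref4-3 and 10.7 and 8.62 CPM in WT.

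Genes were touched by 953 islands, or 81.0%, against 70.5% of WT-only and 92.2% of shared islands. The gene with the longest overlap was protein-coding for 894 islands, a long non-coding RNA gene for 30 and a pseudogene for 14. Of the 953, 801 lay wholly inside their gene, 112 covered its start and 59 its end. In all 1033 genes were touched, and 833 of them (80.6%) were touched by no WT island, while the other 200 had a WT island elsewhere along the gene. By bases, coding sequence made up 38.3% of the islands, introns 17.5%, untranslated regions 16.6% and intergenic sequence 24.5%.

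Within genes the islands gathered after the start. The centre of 570 of the 953, or 59.8%, lay in the first 500 bp of the gene, against 51.7% of WT-only and 40.2% of shared islands. The single bin between 300 and 400 bp held 204 (21.4%), the median centre lay 422 bp after the start, against 441 and 554 bp, and 21 centres lay before it. Relative to gene length the median position was 0.186, where 0 is the start and 1 the end, against 0.320 for WT-only and 0.348 for shared islands. Shared islands were longer, and the part of length in their position was not tested.

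**Figure D2:**
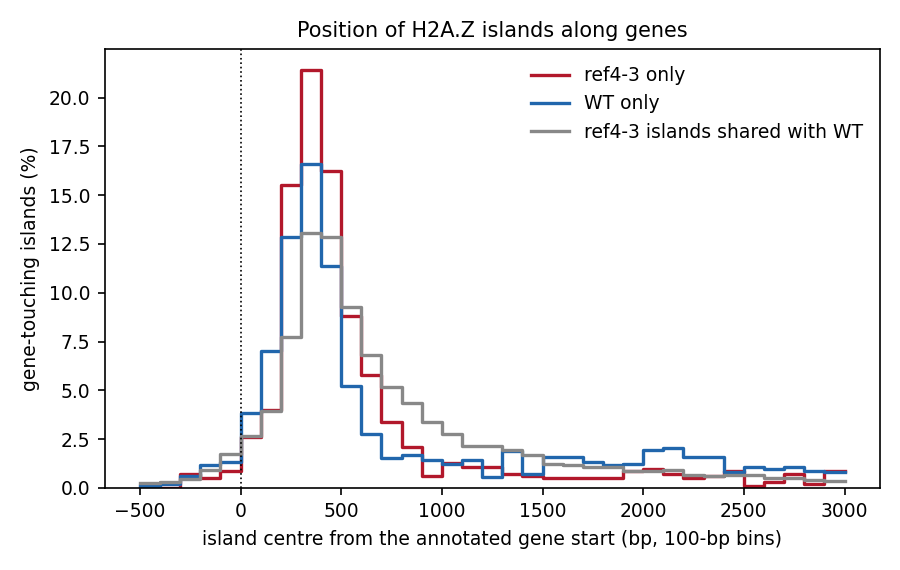
Distance (bp) between the annotated start of a gene and the centre of the H2A.Z island touching it, in bins of 100 bp, as a share (%) of the gene-touching islands of each set; distances outside −500 to 3000 bp are not drawn. The ref4-3-only islands reach 21.4% in the bin between 300 and 400 bp.

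A set of 8 genes, named after the islands had been counted, held 2 separate ref4-3-only islands each: AT1G49210, AT2G42040, NAC047, AT3G22520, ERD5, which encodes proline dehydrogenase, APRR2, the beta-galactosidase gene BGAL4 and AT5G15120. RefSeq lists PCO1 among the synonyms of the last of these, for plant cysteine oxidase, the enzymes that use oxygen to mark group VII ERF factors for degradation.

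The islands of highest score outside genes were all on chromosome 1 or 5. They lay at chr5:10331801-10332000 with a score of 175.5, chr5:4791401-4791600 with 169.8, chr1:16270601-16270800 with 169.1 and chr5:15180801-15181000 with 142.7. The last of these was in the lists of ref4-3 replicate 1 and of WT replicate 1, and the others were in no replicate list. Near-identical sequence elsewhere in the genome, at 95% identity or more, covered 51% of the first, 55% of the second and 74% of the fourth, so that reads there may belong to more than 1 place.

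The counts of overlapping gene regions show how much H2A.Z the islands held in each library. A counted region is the part of a gene, at least 200 bp long, inside the joined islands of both genotypes. Of the 1176 islands 914 shared bases with 973 such regions in 966 genes, and 262 islands had none and could not be followed. "Only" describes the calling of islands and not the presence of signal: every WT library had fragments in each of the 973 regions, and the lowest count in any library was 42.

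Per kilobase, the median over these regions was 34.6 and 33.2 CPM in the ref4-3 libraries and 27.7 and 27.8 CPM in the WT libraries. Over all 24960 regions it was 37.7 and 37.3 CPM in ref4-3 and 37.3 and 37.3 CPM in WT. The regions thus had less H2A.Z than the median region in both genotypes, with 72.7% of them below that median in ref4-3 and 90.1% below it in WT. The median log2 difference was 0.07 between the ref4-3 replicates and 0.02 between the WT replicates, and it was between 0.24 and 0.32 for the 4 pairs of a ref4-3 and a WT library. In rosettes made of many cell types, more cells with H2A.Z at a site and more H2A.Z per cell cannot be told apart.

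The log2 fold change of ref4-3 over WT had a median of 0.28 and ran between −0.07 and 1.27, with 966 of the 973 regions above 0. Both ref4-3 libraries exceeded both WT libraries in 750 regions (77.1%), beside 24% of all regions, and lay below both in 0, beside 24.2%. At an FDR under 0.05 and a fold change above 1.2, the study's thresholds for edgeR's exact test, 180 regions were called increased (18.5%, beside 2.65% of all regions) and 0 decreased (beside 1.63%). The count of 0 also holds with DESeq2 and at an unadjusted p below 0.05, where 477 regions were higher. The rule used the same libraries, so these counts describe the islands and nothing is read from the distance to the background. They also depend on the method: DESeq2 called 8 increased, and the exact test called 47 without WT replicate 1 and 47 without WT replicate 2.

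**Figure D3:**
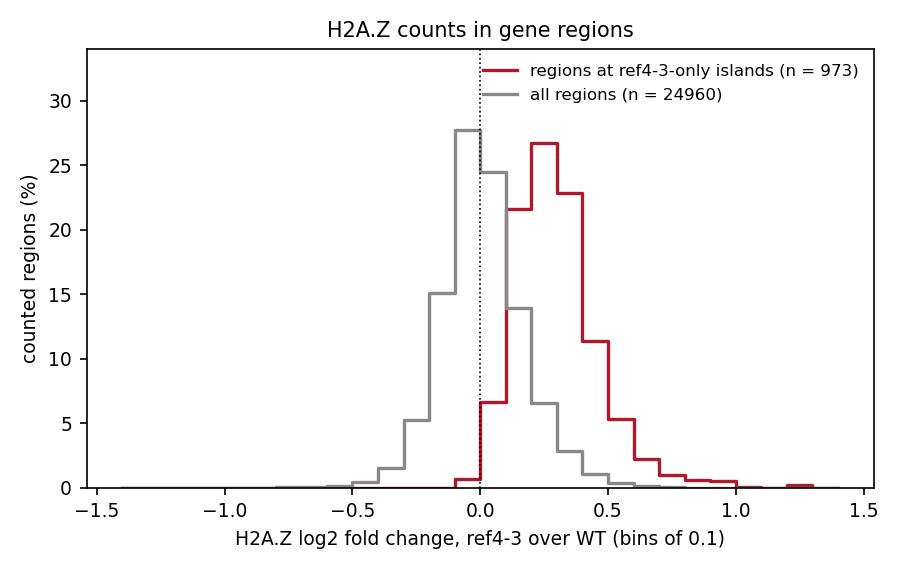
Distribution of the H2A.Z log2 fold change, ref4-3 over WT, over the 973 counted regions at ref4-3-only islands and over all 24960 counted regions, in bins of 0.1, each as a share (%) of its set. The regions at ref4-3-only islands have a median of 0.28, and 966 of 973 lie above 0.

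Regions at these islands made up 27.2% of the 661 regions called increased and 3.90% of all regions. At a 1.5-fold threshold 54 of them were called, which is 70.1% of the 77 called in the whole table. The replicate lists were called from the libraries that were counted, so that the next values restate the choice of islands. The median log2 fold change was 0.39 over 199 regions whose island was in both ref4-3 lists, 0.27 over 482 regions with 1 list and 0.23 over 292 regions with none, and 94, 67 and 19 of them were called. Where the gene had no WT island the median was 0.29 over 790 regions, and where it had one elsewhere 0.22 over 183. WT-only islands had a median of −0.16 over 1140 regions, of which 83 were called decreased.

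Of the 12 islands with the highest scores among those in both ref4-3 lists, no WT list and a counted region, 5 had a counted region that was called increased. Called increased were 180 of all 973 regions at ref4-3-only islands and 2.65% of all counted regions. The 12 were chosen from lists called on the same libraries, so nothing is read from this difference. RALFL13 had 11.5 and 13.3 CPM in ref4-3, against 6.30 and 5.95 CPM in WT, a log2 fold change of 1.01. AT2G14878, a non-coding RNA gene, had 25.7 and 24.5 CPM in ref4-3, against 13.8 and 13.1 CPM in WT, a log2 fold change of 0.90. In both the genotypes did not overlap, and the replicates lay close together. Most regions at ref4-3-only islands had both ref4-3 libraries above both WT libraries, beside 24% of all counted regions.

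AAE17 had 20.2 and 20.1 CPM in ref4-3, against 11.9 and 12.3 CPM in WT, a log2 fold change of 0.73. bZIP1 had 16.9 and 20.2 CPM in ref4-3, against 11.2 and 11.4 CPM in WT, a log2 fold change of 0.71. XTH30 had 18.2 and 18.4 CPM in ref4-3, against 10.8 and 11.6 CPM in WT, a log2 fold change of 0.70. These islands, whose sequences are printed above, again had both ref4-3 libraries above both WT libraries, like most regions at ref4-3-only islands.

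The other seven of these islands had log2 fold changes between 0.20 and 0.40. They were NIC2 with AT5G03585, which share a single region, AT4G01330, ATSYP24, AT3G01740, a mitochondrial ribosomal protein gene, AT1G03910, a cactin gene, AT1G75370, a Sec14-like lipid transfer protein gene, and UTr7, a nucleotide-sugar transporter gene. NIC2 had 16.1 and 15.8 CPM in ref4-3, against 11.3 and 12.8 CPM in WT. UTr7 had 11.7 and 10.9 CPM in ref4-3, against 11.1 and 8.82 CPM in WT. In UTr7, AT1G03910 and AT1G75370 the genotypes touched or overlapped, although their islands were called in both ref4-3 lists and in no WT list.

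**Figure D4:**
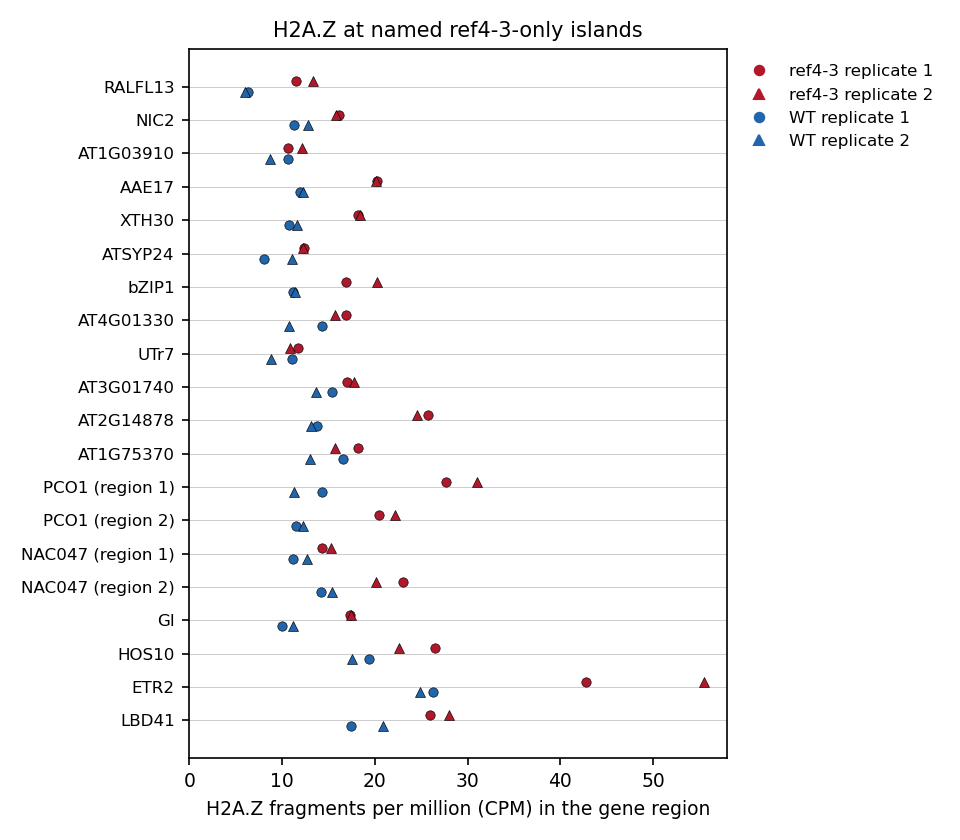
H2A.Z fragments scaled to library depth (CPM) in the counted gene regions of named ref4-3-only islands, 1 point per library, for ref4-3 replicates 1 and 2 and WT replicates 1 and 2. In ETR2 the ref4-3 libraries reach 42.8 and 55.5 CPM, against 26.3 and 24.9 CPM in WT, and in UTr7 the genotypes overlap.

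The largest H2A.Z difference of all regions at these islands, named after its value was seen, was in PLPB, which encodes a protein with a light-sensing LOV domain. It had 24.1 and 27.1 CPM in ref4-3, against 11.3 and 10.0 CPM in WT, a log2 fold change of 1.27. Its island of 800 bp was in both ref4-3 lists and had a score of 51.5, which is below the median of the islands.

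Oxygen sensing and the low-oxygen response had 3 of 13 listed genes with an island, while 12 of the 13 had a counted H2A.Z region. All 4 regions at these islands, 2 of them in PCO1, were called increased. This stands beside 18.5% of all regions at ref4-3-only islands and 2.65% of all counted regions. The H2A.Z rule chose these regions, so nothing is read from the count. Of all protein-coding genes 3.41% had an island, and this share stands beside the gene counts of this list and of those that follow. PCO1 (AT5G15120) had 27.7 and 31.0 CPM in ref4-3, against 14.3 and 11.3 CPM in WT, in the region near its start, a log2 fold change of 1.2. In its second region it had 20.4 and 22.2 CPM in ref4-3, against 11.5 and 12.3 CPM in WT, a log2 fold change of 0.84. ETR2, whose ethylene signal is part of the response to flooding, had a log2 fold change of 0.93. LBD41, a LOB-domain transcription factor gene known to be induced by low oxygen, had 25.9 and 28.0 CPM in ref4-3, against 17.4 and 20.9 CPM in WT, a log2 fold change of 0.48. In all 4 regions both ref4-3 libraries lay above both WT libraries, as in most regions at ref4-3-only islands and in 24% of all counted regions. This list and the next were drawn up with earlier results of these libraries known, and the genes are no independent evidence of a direction.

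Of the 15 clock genes listed, 3 had an island. GI (GIGANTEA), which acts in the clock and in day-length control of flowering, had 17.3 and 17.4 CPM in ref4-3, against 9.95 and 11.2 CPM in WT, a log2 fold change of 0.71. ZTL, the blue-light F-box protein that targets clock proteins for degradation, had a log2 fold change of 0.35 and was not called, with 14.2 and 14.3 CPM in ref4-3 and 10.4 and 11.9 CPM in WT. PRR7, a transcriptional repressor of the clock, had a log2 fold change of 0.26 and was not called. The islands of ZTL and PRR7 were in no replicate list, and that of GI was in both ref4-3 lists.

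NAC transcription factor genes had islands in 4 of 99 cases (4.04%), near the 3.41% of all protein-coding genes. NAC047 had 23.0 and 20.1 CPM in ref4-3, against 14.2 and 15.4 CPM in WT, in its island nearer the start, a log2 fold change of 0.55, and 0.31 in the other. SOG1, a regulator of the response to DNA damage, had a log2 fold change of 0.36, NAC083 of 0.17 and NAC1, known from auxin-dependent lateral root formation, of 0.14, and none of these was called. Of 125 MYB genes, 3 (2.4%) had an island. HOS10 had 26.5 and 22.6 CPM in ref4-3, against 19.4 and 17.5 CPM in WT, a log2 fold change of 0.42, and shares all of that region with AT1G35516. MYB73 had a log2 fold change of 0.43 without a call, and MYB112 had 13.4 and 12.6 CPM in ref4-3 and 10.9 and 13.4 CPM in WT, which overlap.

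The other lists had single genes with an island, and none of these was called. They were MED21, a Mediator subunit, among 9 Mediator genes matched, ICE1, an activator of cold-response genes, among 14 cold genes, MYC2, the main jasmonate transcription factor, among 35 jasmonate genes, and ALDH2C4, the aldehyde dehydrogenase that forms ferulate and sinapate, among 26 phenylpropanoid genes. WRKY50 stood alone among 71 WRKY genes, RAP2.10 among 47 ERF and DREB genes and HSP93-III among 48 heat shock genes. Their log2 fold changes were 0.08 for MED21, 0.26 for ICE1, 0.28 for MYC2, 0.14 for ALDH2C4, 0.34 for WRKY50, 0.24 for RAP2.10 and 0.24 for HSP93-III. RAP2.10 had 21.6 and 12.8 CPM in ref4-3 and 14.4 and 15.1 CPM in WT, so that its second ref4-3 library lay below WT. Lists of 17 Polycomb, 9 H2A.Z and SWR1, 14 salicylate and defence, 19 flowering and 80 SAUR auxin-response genes had 0 genes with an island. With 3.41% of all protein-coding genes having one, nothing is read from these zeros or from the single genes.

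Larger families were drawn from the words of the gene products, and 936 of 27444 protein-coding genes (3.41%) had an island. The counts of regions called increased in these families stand beside 18.5% of all regions at ref4-3-only islands and 2.65% of all counted regions. Cytochrome P450 genes had one in 17 of 248 cases (6.86%), and 1 of their 14 counted regions was called increased, that of CYP86A8 with a log2 fold change of 0.69. The members were CYP88A3, CYP51G1, CYP72C1, AT2G12190, CYP81D7, CYP710A3, CYP86A8, CYP72A15, CYP707A4, CYP71B17, CYP71A22, CYP94D2, CYP702A6, CYP82C4, ROT3, CYP71B11 and CYP81D1. F-box genes had one in 8 of 653 cases (1.23%), namely AT1G51550, AT3G19470, AT3G25090, AT3G51530, FBS3, AT5G44980, AT5G47300 and AFB5, and AT3G19470 was called increased. Receptor and receptor-like kinases had one in 20 of 388 cases, with 2 of 20 regions called increased, AT4G08850 and AT5G39020. They were AT1G13050, AT1G51820, AT1G51860, AT1G51910, CRK2, CLV1, AT2G14510, AT2G16250, RLP37, AT3G28040, AT4G08850, CRK34, GHR1, CRK5, RLP52, RLP53, AT5G39020, CRK42, AT5G41180 and AT5G63410.

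Transporters had an island in 24 of 521 cases, with AT1G12500, a nucleotide-sugar transporter gene, at a log2 fold change of 0.73 and ADNT1, an adenine nucleotide transporter gene, at 0.47 called. They were AT1G08230, STP1, AT1G12500, AT1G33780, AT1G34020, ABCD2, AT2G04620, NAT12, AT2G40420, BOR1, AT3G14410, ALF5, UTR5, PTR1, ADNT1, UMAMIT2, UTR2, UTr7, AT5G04160, AT5G05820, GONST4, COPT5, ABCB27 and OPT4. Peptidases and proteases had one in 20 of 522 cases, with ALP, an aleurain-like protease gene, at 0.65 and AT3G25700 at 0.58 called. They were AT1G05840, AT1G08750, AT1G33360, AT1G62290, AT1G68660, scpl22, MPPalpha, AT3G25700, AT3G44330, AT3G59950, AT4G23365, AT4G31980, AT4G33620, UBP3, NCLPP7, AT5G24260, AT5G25170, AT5G43570, ftsh9 and ALP. Disease resistance genes had one in 5 of 194 cases, AT1G50180, AT1G69550, AT2G16870, RPS2 and AT5G58120, and RPS2, a receptor for a bacterial effector, was called at a log2 fold change of 0.53 and AT1G69550 at 0.55. The hAT transposon-derived gene AT3G22220 was the single one of 111 transposon-related genes.

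Genes whose product names hold the words of transcription factors or zinc-finger proteins had an island in 50 of 1478 cases, beside 3.41% of all coding genes, and 10 of their 50 regions were called increased, beside 18.5% of all regions at ref4-3-only islands. AT5G06420, a CCCH zinc-finger gene, had the largest log2 fold change, 0.91, with 9.83 and 8.43 CPM in ref4-3, against 4.64 and 5.06 CPM in WT. HB-1, a homeodomain-leucine zipper gene, was called at 0.48. The genes were PLIM2b, ZIGA4, AT1G21580, AT1G22140, AT1G29950, PHV, MYC2, AT1G33810, AT1G35516, AT1G43860, MYB112, GTB1, AT1G70650, AT1G72010, AT2G01818, HBI1, AT2G25650, IMB1, AT2G36930, SNZ, AT2G43140, AFO, HB-1, AT3G21810, ICE1, AT3G45560, AT3G46600, AT3G52100, AT3G56930, AT3G57480, AT3G57980, AT3G61420, AT4G02220, AT4G15080, AT4G17950, AT4G22750, ZIM, AT4G25410, AT4G25610, AT4G33740, AP2, MYB73, AT4G37435, AT5G06420, HB-3, AT5G23405, WRKY50, VIM3, AT5G50450 and AT5G58920. Several of these names, such as the DHHC-type proteins, are not known as DNA-binding proteins and fell into the list by their product text.

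H3K27me3 was measured in libraries that the rule did not use. An H3K27me3 island of ref4-3 overlapped 236 of the 1176 islands (20.1%), against 24.2% of WT-only and 39.6% of shared H2A.Z islands. An H3K27me3 island of WT also overlapped 236, of which 222 were the same islands, and 14 had it in ref4-3 alone and 14 in WT alone. In ref4-3, 204 lay wholly inside such an island. The share differed with the place: 10.6% of the islands that touched a gene had H3K27me3, beside 15.9% of WT-only and 37.6% of shared islands, while 60.5% of those outside genes did, beside 44.2% and 63.5%. Of the 101 gene-touching islands in H3K27me3, 42 (41.6%) had their centre in the first 500 bp of the gene, against 528 of the other 852 (62.0%). The comparison sets differed in the same direction, with 40.2% against 53.85% for WT-only and 31.1% against 45.8% for shared islands.

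H3K27me3 counts were at hand for 100 regions in 100 genes, which lay at 96 of the H2A.Z islands and formed 95 separate stretches, since some genes overlap. With edgeR's exact test and Benjamini-Hochberg adjustment over all 8663 H3K27me3 regions, 19 of the 100 were called increased in ref4-3, beside 5.43% of all regions, and 3 were called decreased, beside 7.54%. The 19 lay at 17 separate stretches. Both ref4-3 libraries exceeded both WT libraries in 50 regions, beside 31.4% of all, and lay below both in 15, beside 30.5%. The median log2 fold change was 0.08, against 0.00 over all regions, and 71 of the 100 were above 0. DESeq2 called 12 of the 19 increased and 0 decreased, and without WT replicate 1 the exact test called 14 increased and 0 decreased. The regions are few and were counted only where H2A.Z islands meet marked genes, so the counts are a description and no test was made of the set. A counted H3K27me3 region lies inside the joined H3K27me3 islands of both genotypes and can reach well beyond the H2A.Z island. A region with an H3K27me3 island in a single genotype was thus counted through the libraries in which it is high.

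The largest H3K27me3 increase was in AT1G33820, a gene of unknown function, with 119 and 108 CPM in ref4-3, against 54.2 and 58.2 CPM in WT (log2 fold change 1.01, SE 0.074, with an edgeR FDR 4.02e-40). GLK2, a transcription factor gene of chloroplast development, had 16.9 and 13.8 CPM in ref4-3, against 8.13 and 7.29 CPM in WT (log2 fold change 0.98, SE 0.18, with an edgeR FDR 2.24e-06). The difference was larger than the spread between replicates in both. In GLK2 the whole H2A.Z island lay in an H3K27me3 island of ref4-3 and in none of WT. Its counted region covers the same bases, so it was counted only through the ref4-3 H3K27me3 libraries, where it is high. Its FDR therefore describes the region and is no independent evidence of a rise.

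The overlapping long non-coding RNA genes AT2G09620 and AT2G09625 followed, the first with 23.3 and 23.1 CPM in ref4-3, against 14.2 and 13.8 CPM in WT (log2 fold change 0.73, SE 0.14, with an edgeR FDR 1.08e-05). In AT2G09625 the log2 fold change was also 0.73 (edgeR FDR 7.59e-05), and DESeq2 did not call it, at an adjusted p of 0.0681. Both regions lay in an H3K27me3 island of ref4-3 and in none of WT, so they too were counted only through ref4-3. BGLU14, a beta-glucosidase gene, had 28.3 and 24.7 CPM in ref4-3, against 14.5 and 17.5 CPM in WT (log2 fold change 0.71, SE 0.14, with an edgeR FDR 9.48e-06). Its H2A.Z island, with a score of 148.5, was in both ref4-3 lists and in that of WT replicate 2. That island lay wholly in an H3K27me3 island of ref4-3 and in none of WT. This part of the BGLU14 region was thus counted only through ref4-3, and its FDR is no independent evidence of a rise either.

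XTH30 had 127 and 124 CPM of H3K27me3 in ref4-3, against 85.5 and 80.0 CPM in WT (log2 fold change 0.60, SE 0.064, with an edgeR FDR 3.98e-19). It was thus higher in both marks in all 4 ref4-3 libraries than in any WT library of the same mark. PCO1 was too, with 35.3 and 36.8 CPM of H3K27me3 at its second island in ref4-3, against 25.5 and 27.3 CPM in WT (log2 fold change 0.45, SE 0.11, with an edgeR FDR 0.000997), a call that DESeq2 did not make, at an adjusted p of 0.126.

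The other regions called increased had log2 fold changes between 0.29 and 0.65. They included UGT85A1, a UDP-glucosyltransferase gene, at 0.65, CRK42, a cysteine-rich receptor-like kinase gene, at 0.47, IAA7, a repressor of auxin response, at 0.32, and BLH4, a homeodomain gene, at 0.32. The rest were the non-coding genes AT5G08465, AT5G08475 and AT4G13495, the pseudogenes AT3G27965 and AT5G44255, and AT1G52191, AT2G42040 and AT4G37435. AT5G08465 and AT5G08475 overlap at a single H2A.Z island and share fragments. An H3K27me3 island of ref4-3 covered all of that H2A.Z island, and one of WT covered 50% of it. In AT3G27965 an H3K27me3 island of ref4-3 covered 66.7% of the H2A.Z island and none of WT did. The AT3G27965 region was thus counted only through ref4-3. DESeq2 did not call BLH4 (adjusted p 0.342), AT5G08465 (0.0539), AT5G08475 (0.384), AT3G27965 (0.369) or AT4G37435 (0.387).

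**Figure D5:**
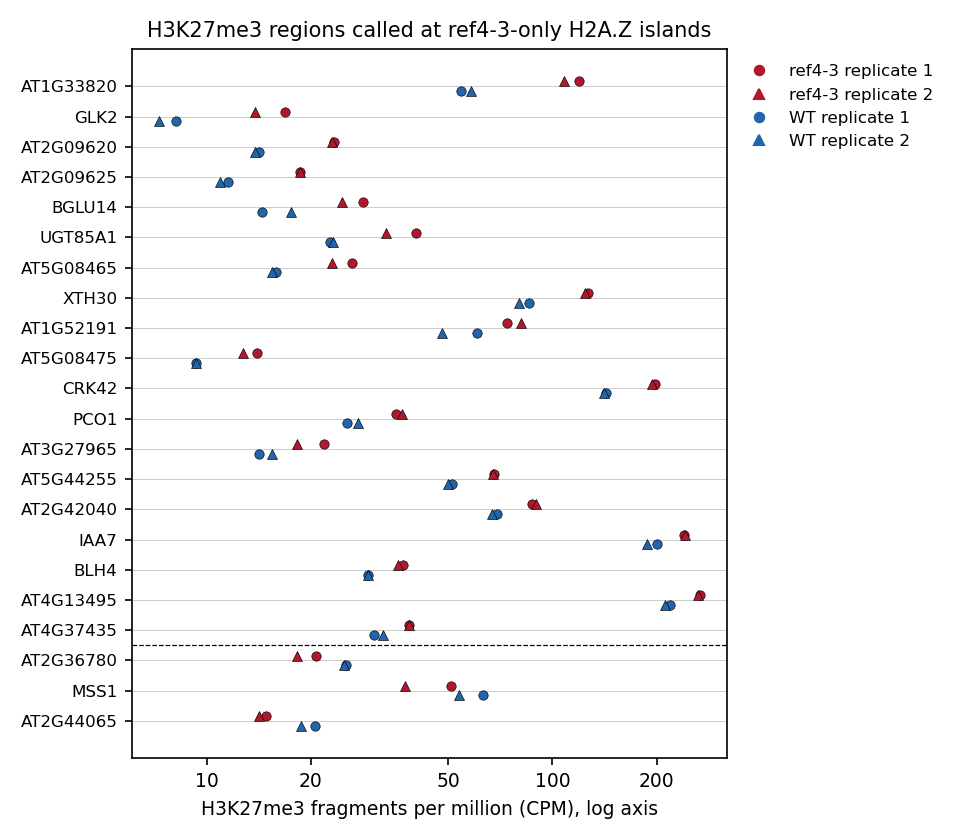
H3K27me3 fragments scaled to library depth (CPM, log axis) in the 22 H3K27me3 regions at ref4-3-only H2A.Z islands that edgeR's exact test called, 1 point per library; the 19 above the dashed line were called increased in ref4-3 and the 3 below it decreased. AT1G33820 has 119 and 108 CPM in ref4-3, against 54.2 and 58.2 CPM in WT.

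The 3 regions called decreased had log2 fold changes between −0.44 and −0.37. AT2G44065, a ribosomal protein L2 gene, had 14.8 and 14.2 CPM in ref4-3, against 20.6 and 18.7 CPM in WT (log2 fold change −0.44, SE 0.15, with an edgeR FDR 0.0184). MSS1, which encodes a sugar transporter, had 50.8 and 37.4 CPM in ref4-3, against 63.1 and 53.5 CPM in WT (log2 fold change −0.42, SE 0.11, with an edgeR FDR 0.00162). The H2A.Z island of MSS1 lay wholly in an H3K27me3 island of WT and in none of ref4-3, so that part was counted only through WT. AT2G36780, a glycosyltransferase gene, had 20.7 and 18.3 CPM in ref4-3, against 25.3 and 24.9 CPM in WT (log2 fold change −0.37, SE 0.13, with an edgeR FDR 0.032). DESeq2 called none of these, with adjusted p between 0.126 and 0.386. Each lost its edgeR call without ref4-3 replicate 2, at FDR values between 0.0901 and 0.2, and without WT replicate 1, at values between 0.202 and 0.306. For MSS1 the log2 fold change moved to −0.19 when ref4-3 replicate 2 was left out and to −0.63 when replicate 1 of that genotype was. Without WT replicate 2 the call was lost in AT2G44065 (0.111) and AT2G36780 (0.241). The count of regions called decreased was 7 without ref4-3 replicate 1, 1 without ref4-3 replicate 2, 0 without WT replicate 1 and 1 without WT replicate 2.

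Both marks could be set side by side for 93 pairs of regions. H2A.Z was called increased in 13 of them, beside 2.65% of all H2A.Z regions, and H3K27me3 in 19, beside 5.43% of all H3K27me3 regions. With 4 in common, 9 were called for H2A.Z alone and 15 for H3K27me3 alone. Whether 4 differs from what the sizes of the 2 sets would give was not tested, so nothing is read from the overlap. All of these counts are of pairs and not of regions. The H3K27me3 region of AT2G42040 was paired with both of its H2A.Z regions, and AT5G08475 had no pair. Across these pairs the log2 fold changes correlated at 0.22 (Pearson) and 0.25 (Spearman). This is a description over 93 pairs of neighbouring or overlapping regions, some of which stand in more than a single pair. The rule chose the islands by H2A.Z, which limits the range of its log2 fold changes. Some H3K27me3 regions were counted only through ref4-3. The coefficients are therefore not read as a link between the marks or as the lack of one. In several, such as XTH30 and MYB112, the H3K27me3 region reached well beyond the H2A.Z region.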

How the data were processed

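H2A.Z and H3K27me3 ChIP-seq of rosettes was analysed for 2 ref4-3 and 2 WT libraries per mark, and the sample titles gave the groups and replicate numbers. The authors trimmed reads (fastp 0.23.2), mapped them to TAIR10 with Bowtie2 and called islands of 200-bp bins with gaps of up to 200 bp, on single replicates and on the replicates merged. For each island the deposited lists give a score, whose formula the authors do not state, and a deposited −log10 value, used here as a description. The deposited counts are fragments per gene region, made by the authors without normalization.

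Islands were compared with bedtools 2.31.1, and a shared base pair counted as overlap. Counts were fitted over all regions of a mark with edgeR 4.0.16 in R 4.3.3 (TMM, exact test). Regions were called at a Benjamini-Hochberg FDR under 0.05 and a fold change above 1.2, and no region was filtered out. The fit was checked on simulated counts with changes of 1.5-fold or more in either direction, so that check did not cover smaller changes. CPM are relative to the fragments in counted regions, so a change shared by all regions cannot be seen. With 2 libraries a group, an exact permutation cannot give a p below 0.333. Annotation and sequences are those of RefSeq TAIR10.1, whose chromosomes have the coordinates of the files, and copies were searched with blastn 2.17.0.

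The islands and the gene lists were chosen with earlier results of these data known. Named are the 12 highest scores in both ref4-3 and no WT replicate list with a counted region. Others are the 4 longest islands and the 4 highest scores outside genes. Up to 4 called H3K27me3 regions per direction and every listed gene with an island are named too. The last are the 3 islands nearest a WT island and the 3 shared islands with the fewest shared bases, ties taken by score. Other names were chosen after their values were seen. Alternatives were DESeq2 1.42.0, the edgeR quasi-likelihood test with and without the replicate number, library totals, a minimum mean count of 100, a 1.5-fold threshold, other overlap rules and the omission of each library.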

Additional observations from a re-analysis of the deposited data

How the results depend on the processing

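The number of islands was 134 with scores at or above the median of the list, 217 in both ref4-3 replicate lists, and between 1086 and 1775 for pairs of replicate lists. H2A.Z regions called increased were 8 with DESeq2, 54 at 1.5-fold, 93 for islands in both ref4-3 and no WT list, and between 47 and 188 with a library left out, against 180. H3K27me3 regions called increased were 12, 8 and 7 in the same order and between 14 and 22 with a library left out, against 19, and those called decreased were 0, 0 and 0 and between 0 and 7, against 3. For islands in both ref4-3 and no WT list the median log2 fold change was 0.394 for H2A.Z, against 0.278, and 0.154 for H3K27me3, against 0.08. The H3K27me3 median ran between 0.055 and 0.103 with a library left out. With H3K27me3 islands of scores at or above the median, 12.7% of the H2A.Z islands overlapped one. The stricter rules leave smaller sets, and the causes of these shifts were not tested.

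Whether same-numbered libraries shared more than a number is not given by the labels. Their deviations correlated at −0.0254 for H2A.Z and 0.0727 for H3K27me3. With 2 libraries per genotype each mark gives a single such value, which cannot settle the question. With the replicate number as a block, 175 H2A.Z and 19 H3K27me3 regions were called increased, 0 and 4 decreased, and the medians were 0.275 and 0.078.

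At this depth the median counted region at these islands had between 116 and 142 H2A.Z fragments per library, which limits how small a difference can be called, and 262 islands had no counted region.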
